A study of Mus musculus with 18 samples.

Results

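The genes described here carry peptides to the cell surface on MHC class I molecules. They are 10 genes of the 49585 in the count table, chosen by name for their role in that pathway: the heavy chains H2-K1 and H2-D1, the light chain B2m, the peptide transporter and loading genes Tap1, Tap2 and Tapbp, the immunoproteasome subunits Psmb8, Psmb9 and Psmb10, and the transcriptional activator Nlrc5. All 10 passed the filter on low counts in every fit, so no member was lost to it.

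RNA was sequenced from 18 libraries of CD45+ leukocytes in 6 groups of 3, all from Kaede mice, whose cells carry a green protein that violet light turns red. For the inflamed groups, OT-II T cells polarised to Th1 were transferred into Kaede mice, which were immunised with ovalbumin in complete Freund's adjuvant and challenged with heat-aggregated ovalbumin in the footpad, called joint here, or in the ear pinna, called skin. The inflamed site was exposed to violet light, and a day later red cells were sorted from the site itself (nonmigrated) or from its draining lymph node (migrated). The remaining groups are called steady state here. Their labels too call them CD45+ leukocytes that reached a lymph node from joint or ear, and they do not say how these cells were gated. They are titled PBS with the code KG at the joint side and Naive at the skin side, so these controls are not named alike at both sites. The paper describes the 3 libraries of each inflamed group as biological replicates, from pools of male and female mice. How the steady-state libraries were pooled is not described. The p-values measure the spread between libraries of a group. The photoconverted gate holds every leukocyte type that was at the site when it was lit, and in such bulk samples a change in the share of a cell type cannot be told apart from a change in RNA per cell.

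MHC class I molecules show fragments of a cell's own proteins to CD8+ T cells. Proteasomes cut proteins into peptides, the TAP transporter moves the peptides into the endoplasmic reticulum, tapasin helps to load them onto a heavy chain, and beta-2 microglobulin holds the heavy chain in shape. Interferon-gamma raises the whole set, exchanging the standard catalytic subunits of the proteasome for the immunoproteasome subunits, and NLRC5 is the activator that acts on class I promoters. In inflamed tissue and its lymph nodes the pathway is best known for cross-presentation by dendritic cells and for recognition of tissue cells by CD8+ T cells.

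Nearly all nucleated cells transcribe these genes, and several of their promoters hold shared letters that are the usual landmarks of the family. The RefSeq promoter windows of the GRCm38.p6 build held 8 of the 10 members; Tap2 and Nlrc5 are named only. The stretches below are written 5′ to 3′ on the strand of the gene and are shown because they set the 2 heavy chains beside their light chain and a transporter subunit. In the heavy chains the first capitals mark the kappa B site of the class I enhancer and the next an interferon response element, searched as GAANNGAAA and found on the strand that is not printed. In B2m the first capitals mark a wider form of that element, GAAA repeated after a gap of 2 letters. The capitals of 5 letters mark TGACG and the box known as CCAAT, which reads ATTGG on the other strand.
H2-K1 promoter, chr17:34000334-34000466 (-): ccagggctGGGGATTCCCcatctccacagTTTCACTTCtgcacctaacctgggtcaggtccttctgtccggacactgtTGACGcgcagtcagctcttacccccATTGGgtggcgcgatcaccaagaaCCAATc
H2-D1 promoter, chr17:35262915-35263053 (+): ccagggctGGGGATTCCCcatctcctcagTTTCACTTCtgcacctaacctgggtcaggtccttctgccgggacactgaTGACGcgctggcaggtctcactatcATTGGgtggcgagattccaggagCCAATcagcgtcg
B2m promoter, chr2:122147540-122147646 (+): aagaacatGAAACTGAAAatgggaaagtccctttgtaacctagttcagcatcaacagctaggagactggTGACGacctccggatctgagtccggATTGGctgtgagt
Tap1 promoter, chr17:34187326-34187482 (+): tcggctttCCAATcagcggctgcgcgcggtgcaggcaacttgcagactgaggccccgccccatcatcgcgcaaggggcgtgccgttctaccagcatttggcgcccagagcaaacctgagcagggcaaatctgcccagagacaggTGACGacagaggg
The H2-K1 and H2-D1 windows matched at 87.2% of 203 aligned bases and carried the same marks in the same order. In 27025 promoters searched on both strands over the bases before the start, the kappa B site was in 0.0925%, GAANNGAAA in 6.48%, its wider form, added after the B2m window had been read, in 3.03%, TGACG in 17.5% and CCAAT in 34% of them. Of the 8 windows, 5 held TGACG and 6 held CCAAT, and Psmb8 held the interferon-gamma activated letters TTCNNNGAA, which 7.12% of promoters hold. Of the letters searched, Psmb8 held no others, Tapbp held only CCAAT and Psmb10 held none. Tap1 and Psmb9 are read in opposite directions from starts 226 bases apart, so their windows overlap by 275 of 300 bases and share one TGACG and one CCAAT. RefSeq and the annotation used below place some starts differently, so the H2-D1 stretch lies inside the span given there. These matches describe letters and were not tested as binding sites.

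In the GRCm38 annotation, the same build as the mm10 used by the authors, 7 members lie on chromosome 17 in or beside the mouse MHC: Tapbp at chr17:33915899-33929292 (+), H2-K1 at chr17:33996017-34000347 (-), Psmb9 at chr17:34181987-34187764 (-), Tap1 at chr17:34187553-34197225 (+), Psmb8 at chr17:34197721-34201454 (+), Tap2 at chr17:34203527-34216321 (+) and H2-D1 at chr17:35262730-35267499 (+). B2m lies at chr2:122147686-122153083 (+), Nlrc5 at chr8:94434356-94527272 (+) and Psmb10 at chr8:105935735-105938444 (-). Counts were made over whole exons. Tap1 and Psmb9 exons overlap by 212 bases on opposite strands, and other transcripts overlap parts of Tap2, Tapbp, Psmb8 and Nlrc5, so a small part of these counts is uncertain. H2-K1 and H2-D1 resemble each other and the H2-Q genes closely, and reads that matched several of them were not counted, so the levels of all of these are uncertain.

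Gene totals ran from 19239531 to 43814403 reads per library. They ran from 19239531 to 22528895 in the inflamed skin groups and from 35554698 to 43814403 in the inflamed joint groups, so depth and site cannot be told apart there. The paper describes the inflamed skin cells as a second data set, made after the joint one. Reads in no gene were 0.0925 to 0.135% in inflamed skin, 0.293 to 0.562% in inflamed joint and 0.227 to 0.441% in skin steady-state libraries. Data set and site thus cannot be told apart either among inflamed groups. Which set the steady-state libraries belong to is not said. Skin migrated libraries had 19239531 to 22378238 reads and skin steady-state ones 28577566 to 40055171, so depth and inflammation cannot be told apart in skin nodes. Joint migrated libraries (40280509 to 43814403) overlapped joint steady-state ones (37500168 to 42938378). The leukocyte markers Ptprc, Coro1a, Laptm5 and Cd52 summed to between 4296 and 6018 CPM in every library, as the CD45 label says, where CPM is a gene's reads scaled to a TMM-adjusted library total. The make-up of the groups differed widely by markers. Monocyte and macrophage markers (7 genes) summed to 16618–20551 CPM in joint nonmigrated and 3047–10370 in skin nonmigrated libraries, against 141–328 in joint migrated and 288–523 in skin migrated ones. Neutrophil markers (7 genes) summed to 5142–15992 and 1584–2601 CPM in joint and skin nonmigrated libraries, against 34.5–89.8 and 13.4–26.0 in the migrated ones. T cell markers (7 genes) went the other way, with 173–346 and 306–836 CPM in nonmigrated against 1432–1966 and 1648–1768 in migrated libraries. Markers of mature dendritic cells (5 genes) summed to 320–490 and 440–1831 CPM in nonmigrated against 2863–7498 and 5619–7991 CPM in migrated libraries. The part these shifts had in the values of the class I genes was not tested.

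On the scale of CPM per kilobase of exon, which allows levels of different genes to be compared, B2m was the highest member in every group, with group means from 2362 to 7809. The heavy chains H2-K1 (830.5 to 1243) and H2-D1 (699.6 to 1739) came next. The other 7 genes stood far below, from Tapbp at 88.2 to 228 down to Psmb9 at 21.6 to 51.8 CPM per kilobase. All later levels are in CPM, per gene.

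The heavy chains bind the peptide and the T cell receptor. H2-D1 measured 4334, 4156 and 3149 CPM in joint nonmigrated, 2774, 3206 and 2957 in joint migrated and 1845, 1773 and 2199 in joint steady-state libraries. In the skin groups it measured 4081, 4405 and 4972, 3039, 3444 and 3379, and 1954, 1763 and 1697 CPM in the same order. H2-D1 was thus higher in inflamed than in steady-state groups with no overlap. In the order of their means each of the 4 inflamed groups overlapped its neighbour, but skin nonmigrated libraries lay above those of both migrated groups. H2-K1 covered a narrower range, from 2214 to 3854 CPM over the 18 libraries, and every neighbouring pair of its 6 group means overlapped. B2m, the light chain shared by all class I molecules, measured 4554, 4169 and 3488 CPM in joint nonmigrated, 3381, 3783 and 3831 in joint migrated and 2209, 2159 and 2749.8 in joint steady-state libraries. In skin it measured 6812, 6643 and 6691 CPM in nonmigrated, 4537, 5032 and 5291 in migrated and 2165, 2109 and 1819 in steady-state libraries. Skin nonmigrated cells were the highest for B2m and apart from all others, and steady-state cells of both sites were the lowest.

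Tap1 and Tap2 form the transporter, and Tapbp encodes tapasin. Tap1 measured 389, 345 and 249.7 CPM in joint nonmigrated, 404, 482 and 422 in joint migrated and 310.1, 307 and 340.2 in joint steady-state libraries. In skin it measured 669.9, 777 and 656 CPM in nonmigrated, 394, 547 and 486 in migrated and 365, 359.9 and 313 in steady-state libraries. Skin nonmigrated cells were again apart and highest, while joint nonmigrated cells overlapped steady-state cells. Tap2 measured 179, 193 and 160.5 CPM in joint nonmigrated, 256, 294 and 262 in joint migrated and 182, 191 and 239 in joint steady-state libraries. Its skin values were 301, 371 and 299.6 CPM in nonmigrated, 291, 346 and 333 in migrated and 216, 197 and 202 in steady-state libraries. The lowest Tap2 group was thus joint nonmigrated, which overlapped the joint steady-state group and lay below the skin one. Tapbp ranged from 395 to 556 CPM in joint nonmigrated, from 439.5 to 591 in joint migrated, from 741 to 959 in skin nonmigrated and from 564 to 714 in skin migrated libraries, all above the 296 to 371 CPM of the steady-state libraries.

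Psmb8, Psmb9 and Psmb10 encode the catalytic subunits that turn a proteasome into an immunoproteasome. Psmb8 measured 235, 239 and 175 CPM in joint nonmigrated, 333, 446 and 396 in joint migrated and 196, 177 and 238 in joint steady-state libraries. In skin it measured 318, 422 and 337 CPM in nonmigrated, 455, 613 and 578 in migrated and 213, 203 and 199 in steady-state libraries. Skin migrated cells were the highest for Psmb8 and apart from every other group. Psmb9 measured 79.6, 88.0 and 69.1 CPM in joint nonmigrated, 141, 170.4 and 148 in joint migrated and 86.9, 80.2 and 105 in joint steady-state libraries. Its skin values were 122, 154 and 145 CPM in nonmigrated, 155, 222 and 192 in migrated and 113, 107 and 95.4 in steady-state libraries. Joint nonmigrated cells were the lowest for Psmb9, overlapping joint steady-state cells. Psmb10 varied least clearly, from 70.0 to 150.4 CPM over all libraries, and every neighbouring pair of its group means overlapped.

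Nlrc5 is the class I activator. It measured 230.4, 206 and 235 CPM in joint nonmigrated, 466, 724 and 655 in joint migrated and 359.6, 381 and 289 in joint steady-state libraries. In skin it measured 451, 515 and 324 CPM in nonmigrated, 552, 676 and 624 in migrated and 364, 399 and 394 in steady-state libraries. Joint nonmigrated cells lay below every library of the other 5 groups, steady-state ones included. The order of its 6 group means was that of Psmb9.

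**Figure D1:**
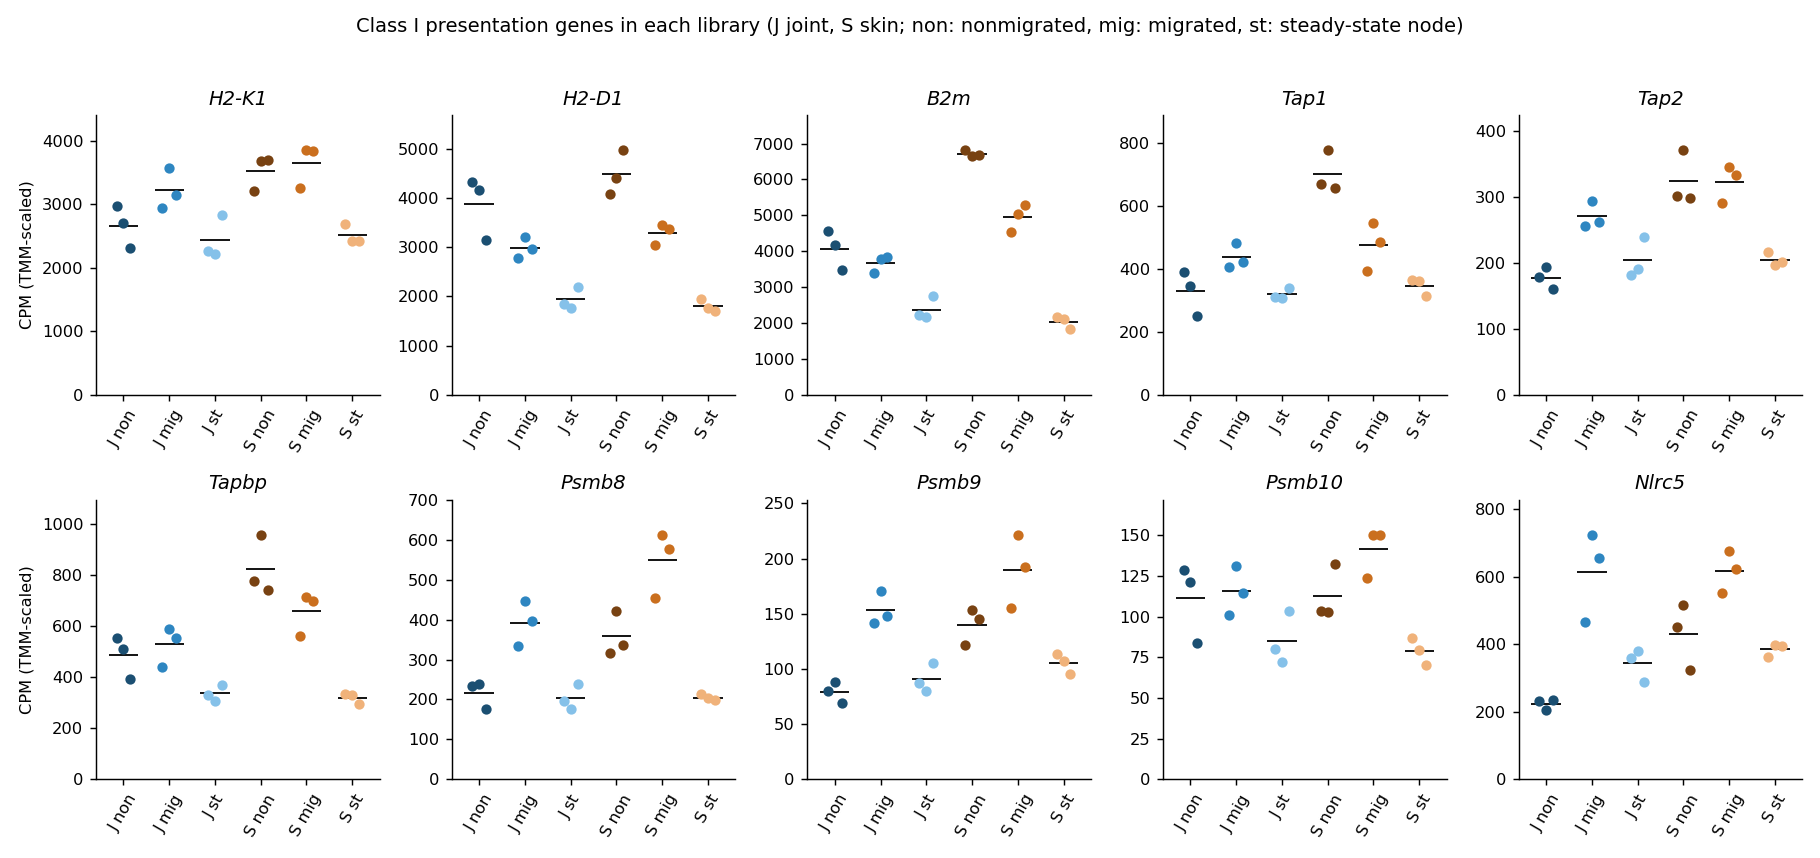
CPM of the 10 members in every library, with a panel for each gene, the 6 groups on the x axis, a point for each library and a bar at the group mean. B2m and Tap1 are highest in skin nonmigrated cells, Psmb8 in skin migrated cells, and Nlrc5 is lowest in joint nonmigrated cells.

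Migrated and nonmigrated cells of the inflamed joint were compared to ask how leukocytes that had left the site for the node differed from those that stayed. In migrated cells Nlrc5 was 2.75-fold, Psmb9 1.95-fold, Psmb8 1.81-fold and Tap2 1.53-fold higher, and H2-D1 was 1.3-fold lower. The activator, 2 of the 3 immunoproteasome subunits and 1 of the transporter subunits were thus higher in cells in the node, and 1 of the heavy chains was lower. In edgeR's quasi-likelihood test with Benjamini-Hochberg adjustment, 4 of the 10 members rose, against 27.1% of all 16777 genes tested, and 1 fell, against 28.4%. The median log2 difference of the members was 0.34, against 0.018 over all genes. With the study's further limit of a 2-fold change, Nlrc5 alone remained, where 16% of all genes rose that far.

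Nlrc5 rose by 1.46 on the log2 scale (SE 0.196, n = 3 against 3, adjusted p = 7.65e-05 in edgeR). Psmb9, which takes the place of Psmb6 in the core, rose by 0.96 (SE 0.15, adjusted p = 0.000231 in edgeR). Psmb8 rose by 0.86 (SE 0.176) and Tap2 by 0.61 (SE 0.125), both with an adjusted p of 0.00147 in edgeR. The joint groups did not overlap for these 4 genes, and each passed in all 20 settings of the processing that were tried. How many of all genes had groups that did not overlap was not counted, in this or any later comparison. H2-D1 fell by 0.38 (SE 0.15, adjusted p = 0.0496 in edgeR), but its groups overlapped. That call was lost in 10 of the 12 fits that each left out 1 library, with adjusted p values between 0.0556 and 0.157 in edgeR, and was kept only without the third joint nonmigrated or the third skin nonmigrated library. Without TMM scaling the H2-D1 difference shrank to -0.07.

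Tap1, the other transporter subunit, had a log2 difference of 0.41 (SE 0.174, adjusted p = 0.0622 in edgeR) with groups that did not overlap. It passed without the first joint nonmigrated library (adjusted p = 0.0304 in edgeR). H2-K1 at 0.27 (SE 0.143), Tapbp at 0.12 (SE 0.172), Psmb10 at 0.05 (SE 0.171) and B2m at -0.15 (SE 0.137) did not pass and overlapped between groups.

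The same question was asked in skin. Psmb8 was 1.52-fold, Nlrc5 1.43-fold and Psmb9 1.35-fold higher in migrated cells, while Tap1 was 1.48-fold, H2-D1 1.37-fold and B2m 1.36-fold lower. Of the 3 immunoproteasome subunits Psmb10 did not pass, nor did the heavy chain H2-K1. In edgeR's quasi-likelihood test, 3 members rose, against 28.1% of all genes, and 3 fell, against 28.9%, so each share was near that of all genes, with none of them 2-fold, which 15.7% and 19.7% of all genes reached. The members' median log2 difference was 0.018, against 0.0093 over all genes.

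Psmb8 rose by 0.61 (SE 0.175, adjusted p = 0.0111 in edgeR), Nlrc5 by 0.52 (SE 0.193, adjusted p = 0.0378) and Psmb9 by 0.43 (SE 0.15, adjusted p = 0.0274). B2m fell by 0.44 (SE 0.137, adjusted p = 0.016 in edgeR), H2-D1 by 0.45 (SE 0.151, adjusted p = 0.0228) and Tap1 by 0.56 (SE 0.174, adjusted p = 0.0156). The 2 groups did not overlap for any of these 6 genes, nor for Tapbp, which had a log2 difference of -0.33 (SE 0.172, adjusted p = 0.121 in edgeR). Psmb10 (0.32), H2-K1 (0.04) and Tap2 (-0.0074) overlapped and did not pass.

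Each of these skin calls rested in part on single libraries. Without the first skin migrated library, H2-D1 (adjusted p = 0.0894 in edgeR), B2m (0.0758) and Tap1 (0.0732) no longer passed, which left 3 higher and 0 lower members. Without the second skin migrated library, Psmb8 (adjusted p = 0.0509 in edgeR), Psmb9 (0.136) and Nlrc5 (0.119) no longer passed, which left 0 higher and 3 lower. Without the third skin migrated library Psmb9 (0.0784) and Nlrc5 (0.092) were lost, and without the first skin nonmigrated library the same genes were (0.108 and 0.0625, adjusted p in edgeR). Tap1 was also lost without the second skin nonmigrated library (0.056), and H2-D1 (0.0659) and Nlrc5 (0.112) without the third. Without TMM scaling H2-D1, B2m and Tap1 kept their sign at -0.19, -0.18 and -0.30 but did not pass, and Psmb10 did pass at 0.59 (adjusted p = 0.00933 in edgeR).

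The change with migration was then compared between sites, as the joint difference minus the skin difference. Tap1 differed between sites by 0.98 (SE 0.246, adjusted p = 0.0347 in edgeR), with a log2 difference of 0.41 in joint and -0.56 in skin. It was the only member to pass in this fit, where 5.01% of all genes differed in that direction and 2.97% in the other. The call was lost without the first (0.0693) or second (0.0815) skin nonmigrated, the second joint nonmigrated (0.0695), the first (0.0854) or the third (0.0725) skin migrated, or the second (0.0864) or the third (0.0523) joint migrated library, all adjusted p values in edgeR. Nlrc5 had a difference of 0.94 (SE 0.272, adjusted p = 0.0563 in edgeR) and Tap2 one of 0.62 (SE 0.177, adjusted p = 0.0545). Both passed in the fit of all 18 libraries (0.0196 and 0.031 in edgeR), without the third skin nonmigrated library (0.00752 and 0.0224) and in DESeq2 (0.0171 and 0.0152). The other 7 members had adjusted p values between 0.141 and 0.861.

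Nonmigrated cells of the sites were set against each other next, to ask how leukocytes that stayed in an inflamed joint differed from those that stayed in inflamed skin. The class I genes were lower in the joint nearly throughout: Tap1 was 2.14-fold, Nlrc5 1.93-fold, Tap2 1.83-fold, Psmb9 1.78-fold, Tapbp 1.7-fold, Psmb8 1.66-fold and B2m 1.65-fold lower. In edgeR's quasi-likelihood test 7 of 10 members fell, against 15.1% of all genes, and 0 rose, against 12.4%. The members' median was -0.75, against 0.011 over all genes. DESeq2 also gave no member higher in the joint, and no member was higher at an unadjusted p under 0.05 in edgeR. Over all genes, 6794 of 16777 had such a p in either direction.

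Tap1 fell by 1.10 (SE 0.175, adjusted p = 0.00123 in edgeR), the only member past 2-fold, where 8.86% of all genes fell that far. Tap2 fell by 0.87 (SE 0.126, adjusted p = 0.000725), Nlrc5 by 0.95 (SE 0.194, adjusted p = 0.00476) and Psmb9 by 0.83 (SE 0.15, adjusted p = 0.00254 in edgeR). Tapbp fell by 0.76 (SE 0.173, adjusted p = 0.00802), B2m by 0.73 (SE 0.138, adjusted p = 0.00323) and Psmb8 by 0.73 (SE 0.176, adjusted p = 0.0104 in edgeR). The joint and skin libraries did not overlap for any of the 7, and all 7 calls were kept in the 20 settings tried. H2-K1 did not overlap either and had a log2 difference of -0.41 (SE 0.144, adjusted p = 0.0537 in edgeR). It passed in DESeq2 (0.0126), in the fit of all 18 libraries (0.0351) and without the first joint nonmigrated library (0.0497). H2-D1 at -0.21 (SE 0.15) and Psmb10 at -0.020 (SE 0.171) overlapped and did not pass.

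Other cell types moved with this comparison. In edgeR's test 5 of 7 neutrophil and 5 of 5 B cell markers were higher in joint nonmigrated cells. There 6 of 7 T cell and 4 of 5 mature dendritic cell markers were lower, and 1 mature dendritic cell marker was higher. Keratinocyte markers (4 genes) summed to 23.8–281 CPM in skin nonmigrated libraries and to at most 2.29 CPM in the other groups. Their part in the class I values was not tested.

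Once in the node, cells from joint and skin were compared in the same way. No member passed in edgeR's quasi-likelihood test, where 1.78% of all genes differed in either direction. All 10 differences lay between -0.48 for Psmb8 (adjusted p = 0.188) and -0.0040 for Nlrc5, with a median of -0.27 against -0.0023 over all genes. B2m had a difference of -0.43 (SE 0.137, adjusted p = 0.138 in edgeR). At an unadjusted p under 0.05 there were 2 members, B2m and Psmb8, and these were also the members whose libraries did not overlap. Over all genes, 2770 of 16777 had such a p in edgeR. DESeq2 called 1, B2m (-0.43, adjusted p = 0.0111). The lower levels of Tap1, Tap2 and Nlrc5 in joint nonmigrated cells were thus not matched by a detected difference in migrated cells, and the interaction of site and migration given above passed for Tap1 alone.

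**Figure D2:**
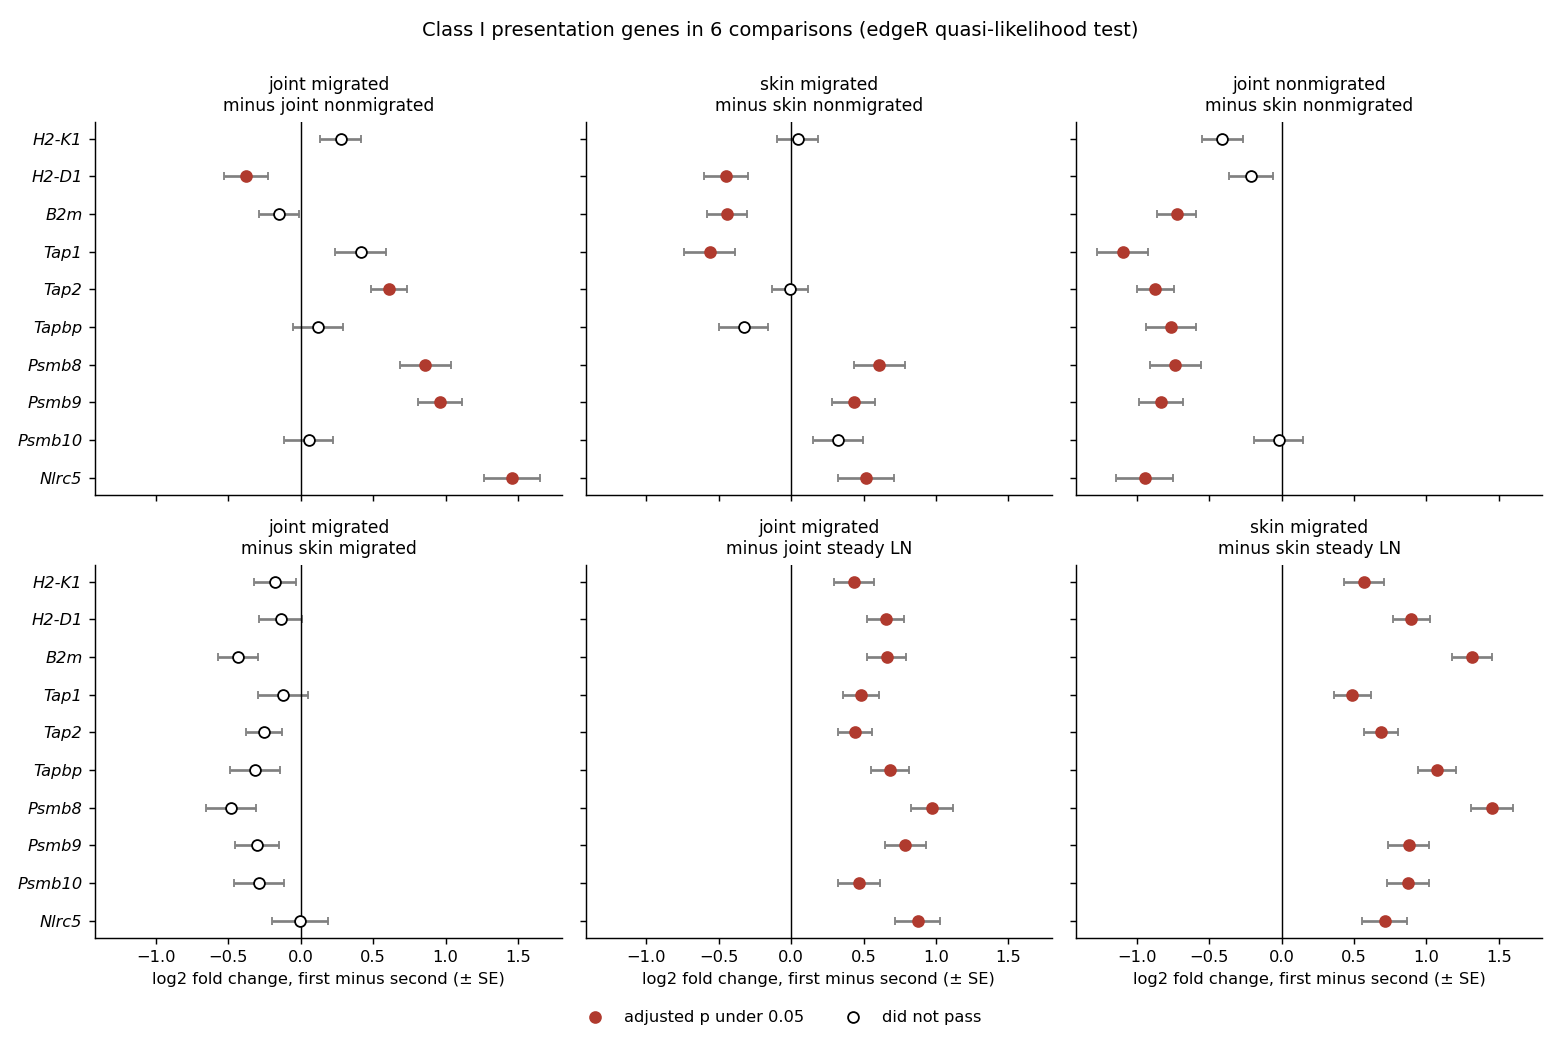
Log2 difference with its standard error for the 10 members in 6 comparisons of the edgeR fits, with filled points where the adjusted p was under 0.05. Joint against skin nonmigrated cells has 7 filled points to the left of 0, and migrated against steady-state cells has all 10 to the right at both sites.

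Migrated cells were also compared with the steady-state lymph node cells. Their labels also describe these as having come from joint or ear, but the gate is not given. The paper calls cells that were not photoconverted Kaede green, and whether KG stands for this is not said. Challenge, other treatment of the mice and gate of the cells therefore cannot be told apart here. At both sites every member was higher in migrated cells. In skin Psmb8 was 2.74-fold, B2m 2.49-fold and tapasin (Tapbp) 2.11-fold higher, and in joint the largest folds were Psmb8 at 1.97 and Nlrc5 at 1.83. In edgeR's quasi-likelihood test 10 of 10 rose in joint, against 27.1% of 17107 genes tested, and 10 of 10 rose in skin, against 34.4%. The medians were 0.66 in joint and 0.88 in skin, against -0.022 and 0.0016 over all genes. Past 2-fold there were 0 members in joint and 3 in skin, where 16.9% and 21.5% of all genes rose that far. The migrated libraries are the ones used in the comparisons above, so these results share them.

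Among the chains, B2m rose by 0.66 (SE 0.136, adjusted p = 0.00124 in edgeR) in joint and by 1.32 (SE 0.137, adjusted p = 2.2e-06) in skin. H2-D1 rose by 0.65 (SE 0.126) in joint and 0.90 (SE 0.127) in skin, and H2-K1 by 0.43 (SE 0.139) and 0.57 (SE 0.139). For peptide supply, Tap1 rose by 0.48 in joint and 0.49 in skin, Tap2 by 0.44 and 0.69, and Tapbp by 0.68 and 1.07. Of the immunoproteasome subunits, Psmb8 rose by 0.98 (SE 0.145, adjusted p = 9.54e-05 in edgeR) in joint and 1.45 (SE 0.147, adjusted p = 1.7e-06) in skin, Psmb9 by 0.79 and 0.88, and Psmb10 by 0.47 and 0.88. Nlrc5 rose by 0.87 (SE 0.154, adjusted p = 0.000389 in edgeR) in joint and 0.71 (SE 0.154, adjusted p = 0.00121) in skin.

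Migrated and steady-state libraries did not overlap for any member in skin, and in joint they overlapped for Psmb10. The share of all genes without overlap is not known here either. All 10 skin calls were kept in the 20 settings. In joint, H2-K1 (adjusted p = 0.019 in edgeR) was lost without the second joint migrated (0.0759) or the first (0.0657) or second (0.0732) joint steady-state library. Psmb10 (adjusted p = 0.0155) was lost without the same libraries (0.0754, 0.0591 and 0.0774 in edgeR). B cell markers (5 genes) summed to 3724–4024 and 2413–3247 CPM in joint and skin steady-state libraries, against 630–879 and 106–190 in migrated ones. Mature dendritic cell markers were the reverse, at 657–1041 and 581–731 CPM in steady-state libraries, below the migrated values given above. Neutrophil markers fell in 7 of 7 cases in joint, from 418–821 CPM at steady state, and monocyte and macrophage markers rose in 7 of 7 in skin, from 51.5–78.9 CPM. The part of these shifts in the member values was not tested.

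The steady-state nodes differed from each other in no member. In edgeR's quasi-likelihood test 0 of 10 passed, against 7.61% of all genes in either direction. At an unadjusted p under 0.05 there were 0, against 3708 of 17107 genes, and DESeq2 called 0 members. The differences lay between -0.22 for Psmb9 and 0.22 for B2m, and the libraries overlapped for all 10. The rise from steady state was then compared between sites. Only B2m passed, with a joint rise smaller than the skin rise by 0.66 (log2 difference -0.66, SE 0.191, adjusted p = 0.0446 in edgeR), where 5.86% of all genes differed in that direction and 4.21% in the other. That call was lost when any one of the 12 libraries was left out, with adjusted p values between 0.0566 and 0.133 in edgeR. Depth was unlike between the skin groups of this comparison but overlapped between the joint ones. Between the steady-state nodes 7 of 7 neutrophil and 6 of 7 monocyte and macrophage markers were higher in joint. There 2 of 7 T cell and 1 of 5 mature dendritic cell markers were lower. In the comparison of the rises, 6 of 7 neutrophil and 7 of 7 monocyte and macrophage markers were lower for joint. All 5 of 5 B cell markers and 1 of 7 T cell markers were higher. The part of depth and of cell make-up was not tested.

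Because immunoproteasome subunits take the place of standard ones in the proteasome, their levels per kilobase were divided by those of the partner within each library. Psmb8 over Psmb5, the chymotrypsin-like pair, was 0.974, 0.922 and 0.867 in joint nonmigrated and 1.69, 2.42 and 2.33 in joint migrated libraries. In skin it was 1.43, 1.89 and 1.35 in nonmigrated and 2.50, 2.93 and 3.16 in migrated libraries. Steady-state cells lay at 1.55 ± 0.0722 (SD, n = 3) in joint and 1.76 ± 0.0809 in skin. The order ran from joint nonmigrated cells at the bottom to skin migrated cells at the top. The log2 difference between migrated and nonmigrated cells was 1.20 (SE 0.173) in joint and 0.89 (SE 0.181) in skin.

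Psmb9 over Psmb6 was 0.332, 0.356 and 0.355 in joint nonmigrated and 0.875, 1.16 and 1.01 in joint migrated libraries. In skin it was 0.386, 0.600 and 0.511 in nonmigrated and 0.889, 1.26 and 1.06 in migrated libraries, with steady-state cells at 0.650 ± 0.0195 (SD, n = 3) in joint and 0.839 ± 0.0314 in skin. Nonmigrated cells of both sites lay below the steady-state cells, and migrated cells above them. The log2 difference between migrated and nonmigrated cells was 1.54 (SE 0.121) in joint and 1.11 (SE 0.235) in skin. The remaining pair, Psmb10 over Psmb7, was 3.28 ± 0.476 and 4.21 ± 0.735 in joint nonmigrated and migrated, 3.07 ± 0.505 and 4.47 ± 0.512 in skin nonmigrated and migrated, and 4.98 ± 0.256 and 4.91 ± 0.338 in joint and skin steady-state libraries (SD, n = 3). It differed by 0.35 in joint, with overlap, and by 0.55 (SE 0.165) in skin, without.

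A ratio of the heavy chains was added after their levels had been seen. H2-K1 over H2-D1 was 0.607 ± 0.0367 in joint nonmigrated, 0.948 ± 0.0255 in joint migrated, 0.693 ± 0.0414 in skin nonmigrated and 0.974 ± 0.0295 in skin migrated libraries (SD, n = 3), with steady-state cells at 1.10 ± 0.0277 in joint and 1.22 ± 0.0277 in skin. H2-D1 was thus higher relative to H2-K1 in cells that stayed in the tissue than in cells of the node, by 0.65 (SE 0.055) in joint and 0.49 (SE 0.0558) in skin on the log2 scale. Each of the differences with migration named here that did not overlap, for the 4 ratios at either site, had p = 0.1 in the exact two-sided permutation test. That is the smallest value that groups of 3 allow, so this test could not pass 0.05. Between joint and skin migrated cells Psmb8 over Psmb5 was -0.43 with no overlap, and the other 3 ratios, from -0.09 to -0.04, overlapped.

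**Figure D3:**
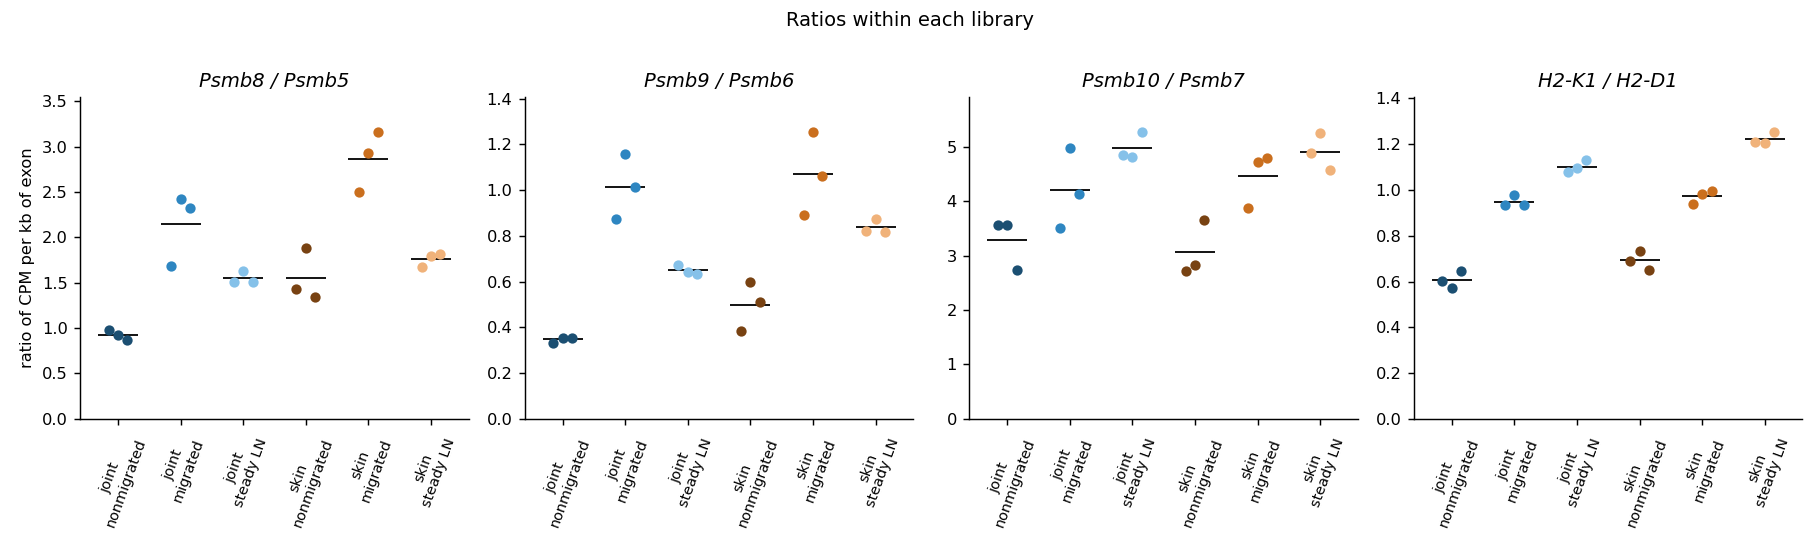
Ratios of CPM per kilobase within each library, with a panel for each pair, the groups on the x axis, a point for each library and a bar at the group mean. The Psmb8 to Psmb5 and Psmb9 to Psmb6 ratios are lowest in joint nonmigrated cells, and the H2-K1 to H2-D1 ratio is lowest in nonmigrated cells of both sites.

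The rest of the pathway was read from lists of related genes. With migration 27.1% of all genes rose and 28.4% fell in joint, and 28.1% rose and 28.9% fell in skin. The list counts below stand beside these shares, several are near them, and no list was tested as a set. The standard catalytic subunits moved against the immunoproteasome with migration: Psmb6 fell by 0.58 (adjusted p = 0.000968 in edgeR) in joint and 0.69 (0.000297) in skin, Psmb7 by 0.29 (0.0145) and 0.22 (0.0461), and Psmb5 by 0.35 (0.0219) in joint, with -0.28 (0.0529) in skin. The other subunits of the proteasome core fell in 5 of 11 cases and rose in 0 at each site, among them Psma1 (-0.51 and -0.38), Psma6 (-0.47 and -0.46) and Psma4 (-0.52 and -0.36), and the medians were -0.25 and -0.14. Activators and assembly factors rose in 3 and fell in 1 of 6 at each site. Psme2 and Psme1, which encode the interferon-inducible cap of the proteasome, rose by 1.41 and 0.96 in joint and by 1.11 and 0.74 in skin, and Psme4, another cap, fell by 0.61 and 0.40.

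Among 13 other class I and class I-like heavy chain genes tested, 10 rose and 2 fell with migration in joint (median 1.20), while 4 rose and 4 fell in skin (median -0.02). The list they came from includes the class I-like genes Mr1, Cd1d1 and Cd1d2. H2-T10 and Cd1d2 on it are annotated as polymorphic pseudogenes. H2-M2 rose by 5.08 (SE 0.284, adjusted p = 2.39e-07 in edgeR) in joint and 4.82 (SE 0.28, adjusted p = 1.87e-07) in skin. H2-Q7 rose by 1.62 (SE 0.134) and 0.79 (SE 0.132), and H2-Q6 by 1.76 (SE 0.15) in joint, with 0.31 (adjusted p = 0.0924 in edgeR) in skin. The change with migration differed between sites for 6 of the 13, each higher in joint, among them H2-Q6 at 1.45 (adjusted p = 0.00326 in edgeR) and H2-Q7 at 0.83 (0.0209). Of all genes, 5.01% differed in that direction. Genes of loading and trimming rose in 1 and fell in 3 of 9 in joint, and rose in 1 and fell in 1 in skin. Tapbpl, which edits the peptides on class I, rose by 1.74 and 1.47, and the chaperones Canx and Pdia3 fell by 0.57 and 0.41 in joint, with -0.051 and -0.033 in skin.

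Of 12 regulators of class I promoters, 5 rose and 1 fell in joint, and 5 rose and 3 fell in skin. Rfx5, whose product binds the promoter beside NLRC5, rose by 1.39 in joint and 0.79 in skin, Rfxank by 0.77 and 0.49, and Creb1 by 0.53 and 0.84. Irf1, which binds interferon response elements, had a log2 difference of 0.34 (adjusted p = 0.0934 in edgeR) in joint and fell by 0.70 (0.00331) in skin. Ciita, the class II counterpart of Nlrc5, did not pass at either site (-0.33 and 0.06).

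Interferon-gamma and its signalling genes (6) rose in 3 and fell in 2 in joint and rose in 1 and fell in 3 in skin. Socs1, the brake on that signal, rose by 1.03 (SE 0.115, adjusted p = 1.91e-05 in edgeR) with migration in joint and fell by 1.48 (SE 0.116, adjusted p = 1.58e-06) in skin, an interaction of 2.51 (adjusted p = 7.99e-05). The receptor chain Ifngr2 fell by 1.35 and 1.01, and Jak1 rose by 0.83 and 0.41. Irf1 had an interaction of 1.04 (adjusted p = 0.0205 in edgeR).

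In joint against skin nonmigrated cells these lists fell where they moved: 8 of 13 heavy chains, 7 of 12 promoter regulators and 4 of 6 interferon-gamma genes were lower, with 1 gene of the last list higher. Of all genes, 15.1% were lower and 12.4% higher. Socs1 was lower by 2.39 (log2 difference -2.39, adjusted p = 3.16e-06 in edgeR) and Irf1 by 1.35 (-1.35, 0.000299). Rfx5 (-0.77), Psme1 (-0.77), Psme2 (-0.65) and Tapbpl (-0.75) were lower as well. Of the standard catalytic subunits Psmb6 was lower (-0.33, adjusted p = 0.0462 in edgeR) and the other two did not pass, and 0 of 11 other core subunits passed. Between joint and skin migrated cells no gene of any of these lists passed in edgeR's test, where 1.78% of all genes did.

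Against steady-state nodes, most of the proteasome core was higher in migrated cells, beside the immunoproteasome. The standard subunits rose in 2 of 3 cases in joint and 3 of 3 in skin, as Psmb5 by 0.51 and 0.75 and Psmb7 by 0.73 and 1.01, and Psmb6 by 0.53 in skin, with 0.15 in joint. Of the 11 other core subunits, 8 rose in joint and 11 in skin, against 27.1% and 34.4% of all genes. Psme2 rose by 1.41 and 1.83 and Psme1 by 0.79 and 1.25. Irf1 rose by 0.40 and 1.04 and Socs1 by 0.48 and 1.32. Rfx5 fell by 0.40 and 0.27, and Ciita fell by 1.07 and 0.61.

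Further lists were read beside these for contrast with MHC class II and with cells that respond to class I. Class II genes fell with migration in 6 of 7 cases at each site, among them H2-DMb1 (-2.83 and -2.21), H2-Ab1 (-2.27 and -1.71) and H2-Aa (-1.72 and -0.95). CD8 and class I receptor genes rose in 4 and fell in 1 of 5 in joint and rose in 3 and fell in 1 in skin. Cd8a rose by 3.91 and 2.80, Cd8b1 by 4.04 and 3.25, and Klrd1 by 2.25 and 0.92.

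**Figure D4:**
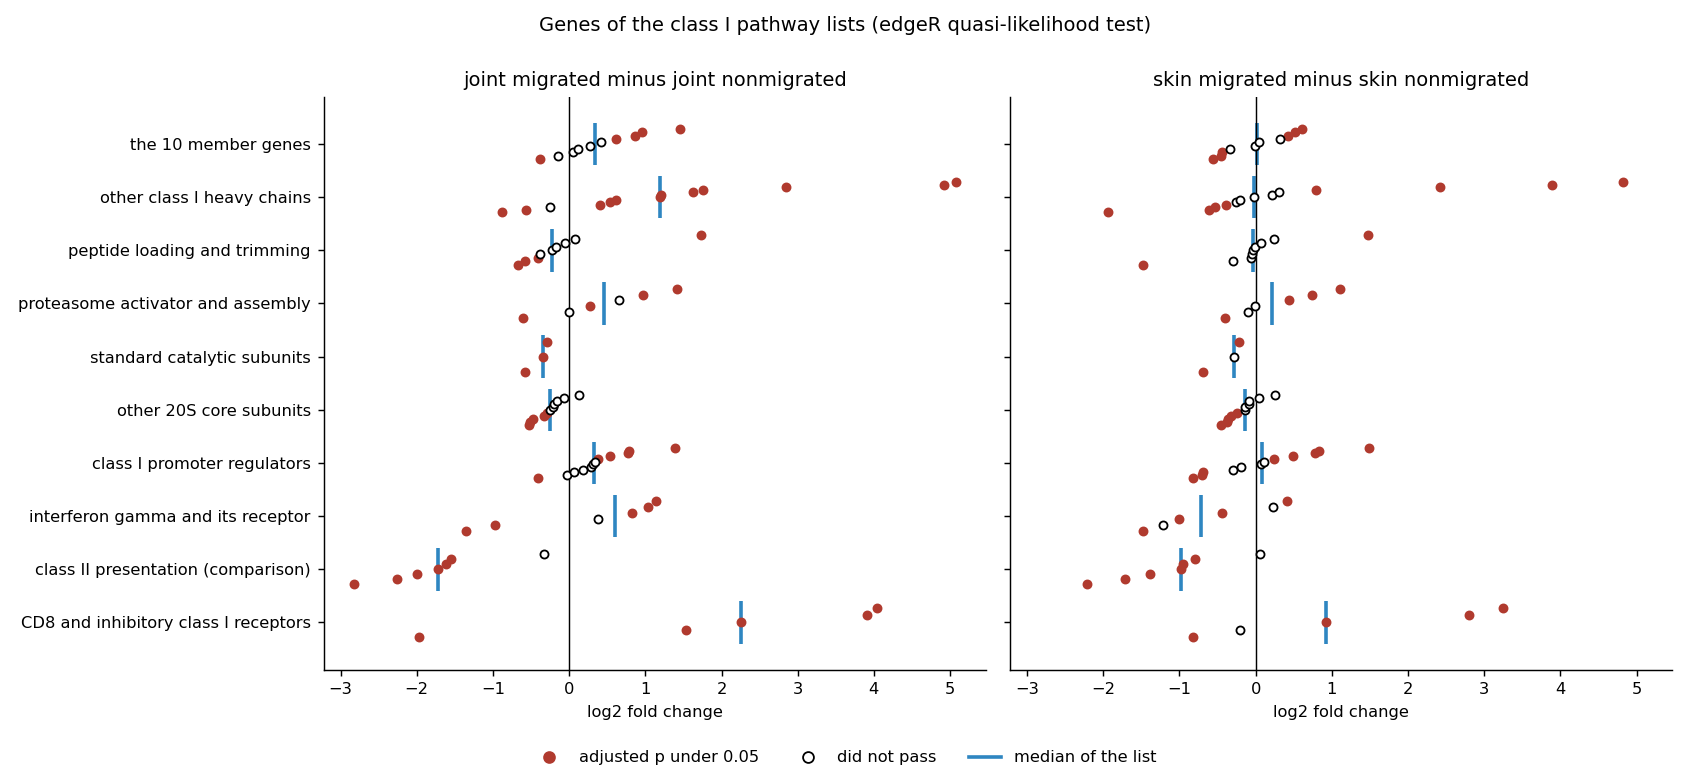
Log2 difference of each gene in the pathway lists between migrated and nonmigrated cells, with a panel for each site, a row for each list, a point for each gene, filled where the adjusted p was under 0.05, and a bar at the list's median. All class II genes but Ciita in skin lie below 0, and other class I heavy chains lie mostly above 0 in joint and on both sides of 0 in skin.

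The members did not follow one another equally over the 18 libraries. With the mean of the members' standardised log2 CPM as reference, Pearson's r was 0.98 for H2-K1, 0.943 for Psmb8, 0.937 for Tapbp and 0.927 for Tap2, and lowest for H2-D1 at 0.739 and Nlrc5 at 0.618. Each member is part of that mean, which raises its own r. The closest pairs were Tapbp with B2m (0.967), B2m with H2-D1 (0.947) and Psmb8 with Psmb9 (0.944). Nlrc5 stood farthest from H2-D1 (-0.0109) and B2m (0.209), and had 0.574 with H2-K1 and 0.84 with Psmb9. Groups, site, depth and cell make-up are shared by these points, so each r is a description over 18 libraries in 6 groups.

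**Figure D5:**
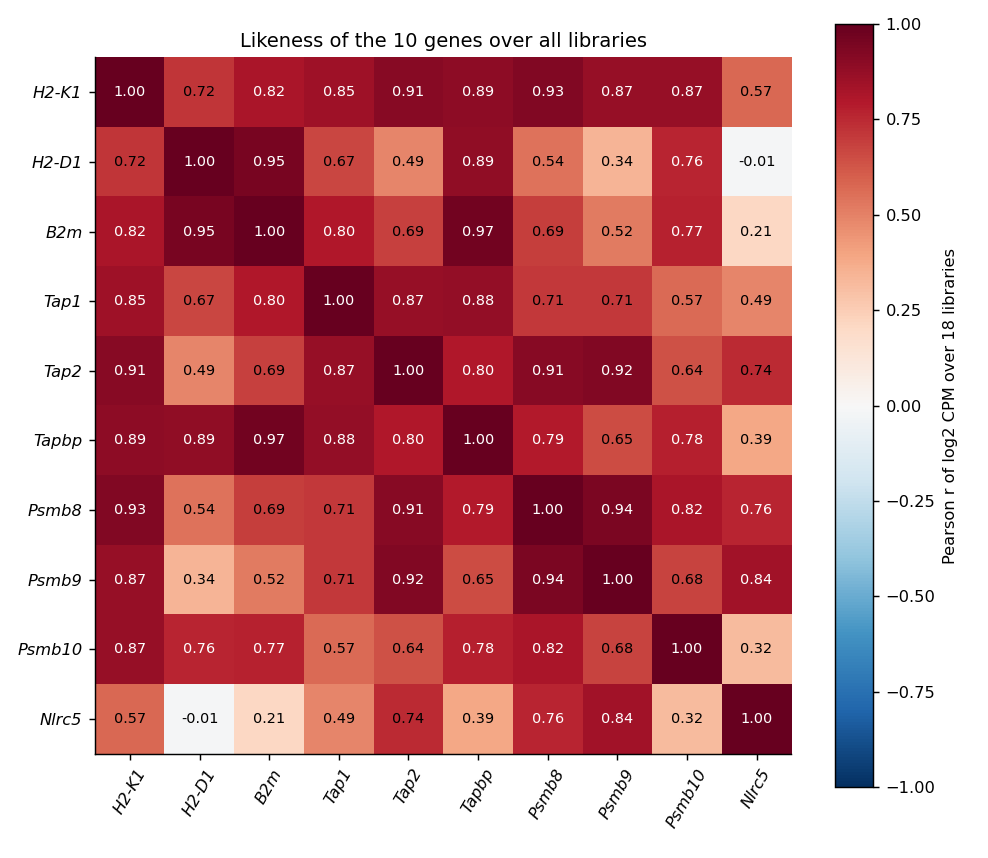
Pearson's r of log2 CPM over the 18 libraries for each pair of members, as a colour scale. B2m has high values with Tapbp (0.967) and H2-D1 (0.947), as has Psmb8 with Psmb9 (0.944), and Nlrc5 with H2-D1 is the lowest (-0.0109).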

How the data were processed

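The authors trimmed paired 100 bp reads with Trim Galore after FastQC, aligned them with TopHat2 to the mm10 mouse genome with Ensembl annotation and counted reads per gene with HTSeq at default settings, per the study's methods and the submitters' processing notes, which also name Cufflinks and DESeq2. They deposited raw counts, 1 column per library, in 1 table. The versions of these tools are not given in the sources used here. HTSeq left out reads with several matches (9.24 to 12.7% of each library), in overlapping genes (1.84 to 2.37%) and in no gene (0.0925 to 0.562%), and these 5 summary rows stayed out of library sizes. Names of 49326 of the 49585 genes came from GENCODE's GRCm38 annotation.

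Counts were fitted with edgeR 4.0.16 (TMM, filterByExpr with a minimum count of 10, quasi-likelihood F test) in R 4.3.3. The 12 inflamed libraries (16777 genes) and the 12 lymph node libraries (17107 genes) had a fit each, so the 6 migrated libraries are in both. Passing means a Benjamini-Hochberg adjusted p under 0.05 over all genes tested. The study's further limit was a log2 change over 1. The scripts were tested on simulated counts. CPM used gene totals multiplied by TMM factors over the 18 libraries, and CPM per kilobase the exon lengths. Ratios were compared with scipy 1.17.1 by an exact two-sided permutation test. DESeq2 1.42.0, its size factors, no filter, a replicate block, a fit of all 18 libraries, fits of only the groups compared and each library left out were the alternatives. Total counts without TMM factors were added after seeing the data.

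Groups came from the labels. Replicate libraries were farther apart than sampling noise, at 16.16 to 129.6 chi-square units for each degree of freedom. All 10 members are named in every comparison; of each pathway list, the 3 genes with the smallest adjusted p in joint migrated against nonmigrated cells are named, and Psmb5, Psmb6, Psmb7, Irf1 and Ciita always; 1 gene under this rule is not reported here. The members and lists were chosen with earlier results of these data known. Promoters were searched in RefSeq windows of GRCm38.p6 with Biopython 1.88, using the window furthest downstream where a gene had several.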

Additional observations from a re-analysis of the deposited data

Results flagged for a closer look

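Tap1 was singled out because its change with migration differed between joint and skin in a test of the difference itself, by 0.98 on the log2 scale (adjusted p = 0.0347 in edgeR). B2m was singled out because its rise from the steady-state node to migrated cells differed between sites, at -0.66 for joint minus skin (adjusted p = 0.0446 in edgeR). Tap1 depended on single libraries in 7 of 12 cases and B2m in all 12. Groups of 3 libraries were too small to look for libraries that stand apart.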

How the results depend on the processing

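With the study's 2-fold limit added at an adjusted p under 0.05, the members called were 1 for joint and 0 for skin migration, 1 for joint against skin nonmigrated cells, 0 for the migration interaction, 0 and 3 for joint and skin migrated against steady state, and 0 for the inflammation interaction. At an adjusted p under 0.001 with that limit they were 1, 0, 0, 0, 0, 3 and 0. DESeq2 called 1 member between migrated groups. For the migration interaction, no filter gave 2 and total counts without TMM, all 18 libraries and DESeq2 gave 3 each. For the inflammation interaction the replicate block, total counts without TMM and all 18 libraries gave 0. Leaving out each library in turn gave 4 to 5 members for joint and 3 to 6 for skin migration, 7 to 8 for nonmigrated cells, 0 to 0 for migrated cells, 0 to 3 for the migration interaction, 8 to 10 and 10 to 10 for joint and skin against steady state, 0 to 0 between steady states and 0 to 0 for the inflammation interaction. The cause of these changes was not tested. With a replicate block the counts were 5, 6, 7, 0, 1, 9, 10, 0 and 0 in the same order. The block gained Tap1 (0.0435) and lost H2-D1 (0.0651) in joint migration, and lost H2-K1 (0.0537) for joint against steady state and B2m (0.115) in the inflammation interaction, adjusted p values in edgeR. The labels do not say whether equal numbers pair the samples, and the values do not settle it. Deviations of migrated and nonmigrated libraries with the same number correlated weakly, at 0.0117, 0.145 and 0.191 in joint and 0.102, 0.0494 and 0.128 in skin. The same number was nonetheless the best match for every migrated library but the first joint one. The main test treated the libraries as unpaired. Total counts without TMM moved the median of all genes by 0.331 and 0.275 in joint and skin migration, -0.173 for skin against steady state and 0.141 in the inflammation interaction. On that scale B2m in joint migration turned to 0.16, Tap2 in skin migration to 0.26 and Psmb10 between nonmigrated cells to 0.0061, while H2-K1 (0.59) and Tapbp (0.43) passed in joint migration. No filter turned that Psmb10 value to 0.038. With 1 library left out, Tapbp and Psmb10 in joint migration ran from -0.017 to 0.25 and from -0.12 to 0.17, H2-K1 in skin migration from -0.016 to 0.13, Tap2 there from -0.061 to 0.11, and Psmb10 between nonmigrated cells from -0.13 to 0.15, none of them passing. No H2-D1 call in joint migration was made with no filter (0.0847) or with only the groups compared (0.0968), and the latter lost Psmb9 (0.0614) and Nlrc5 (0.0541) in skin migration and H2-K1 (0.0687) for joint against steady state. Of the ratios, those of Psmb9 to Psmb6 (-0.20 to 0.053) and Psmb10 to Psmb7 (-0.22 to 0.029) between migrated groups and of Psmb10 to Psmb7 between steady states (-0.026 to 0.073), all with overlapping groups, changed sign with 1 library left out, and the others kept their direction. Pooled mice in the inflamed groups, the unlike titles of the steady-state groups and 3 libraries a group limit all values.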

Other observations

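The 10 genes outside the set whose log2 CPM most resembled the members' mean over the 18 libraries were Cdh3 (Pearson's r 0.966), Ticam1 (0.962), Gosr2 (0.961), Crcp (0.956), Rab9 (0.955), Nrbf2 (0.954), Gbp5 (0.954), Pcgf5 (0.947), Pmvk (0.942) and Rela (0.942). Ticam1 encodes an adaptor of Toll-like receptors, Gbp5 an interferon-inducible guanylate-binding protein, Rela a subunit of NF-kappa B and Cdh3 a cadherin. These values are a description over libraries that share groups, depth and cell make-up.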
